A study of Mus musculus with 6 samples.

Results

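The genes described here make the machinery that copies DNA in S phase and divides the cell in mitosis. Of 52 named genes, 51 had at least 1 probe set annotated to that gene alone on the Affymetrix MOE430A array, out of 12393 genes measured. Ccnb1, which encodes cyclin B1, was the exception. The 20 replication genes and the 31 other measured genes were covered by 90 probe sets. The 31 are genes of cyclins, mitotic kinases, kinesins and the spindle, called mitosis genes here. Ccne1, Ccne2 and Cdk2, which act at entry into S phase, are counted among them. The rule that chose them lists them by name and role.

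RNA came from mouse embryos of strain C57BL/6 at 9.5 days post coitum that were either wild-type or homozygous for the Dll3 allele tm1Rbe, also written Dll3neo. The product of Dll3 is a divergent Notch ligand, and its loss disturbs how somites form. Tissue between the otic placode and the newest somite was dissected, without heart and endoderm, and pooled into 3 wild-type and 3 mutant pools, each hybridised to 1 array. Such tissue holds neural tube, vessels, blood and surface ectoderm besides somites. The number and sex of the embryos in a pool are not stated, and p-values measure the spread between pools. The values are ratios to a reference of the same probe set, so they compare pools and not genes. Whether a gene is expressed at all, somite markers included, cannot be read from a ratio.

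Before S phase the Mcm helicase is loaded at origins by Cdc6 and Cdt1, and Cdc45 and the GINS complex then turn it into the moving helicase. The clamp Pcna, set on DNA by the replication factor C loader, holds polymerases in place, while ribonucleotide reductase and thymidylate synthase supply nucleotides. Cyclin B with Cdk1 drives entry into mitosis, Plk1 and the Aurora kinases build the spindle, Bub1, Bub1b, Mad2l1 and Ttk keep the checkpoint that waits for chromosome attachment, and kinesins move chromosomes and microtubules. Tissue of the elongating embryo divides rapidly, and these transcripts rise and fall with the share of cells in cycle.

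Mutant pools were compared with wild-type pools to ask whether disruption of Dll3 alters transcripts of the dividing cells of somite-level tissue. The targeted gene, Dll3, was at 0.96, 1.004 and 1.028 in wild-type and 0.996, 1.013 and 0.941 in mutant pools, a log2 difference of -0.02 (SE 0.073), and the groups overlapped. Where its probes lie relative to the altered part of the allele is not known here, and these values do not test which pools are mutant. The gene of smallest p over the whole array was Uncx, which marks caudal somite cells, at 1.24, 1.437 and 1.263 in wild-type and 0.694, 0.536 and 0.76 in mutant pools (limma adjusted p = 0.1164).

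No member passed an adjusted p of 0.05 in limma (Benjamini-Hochberg over 12393 genes, smallest adjusted p of a member = 0.9997). The share of all genes passing was 0%. At an unadjusted p under 0.05 there was 1 member, Kifc1, which is 1.96% of 51, beside 2.67% (331) of all genes. All 3 mutant pools lay above all 3 wild-type pools in 2 members, Kifc1 and Kif4, beside 3.98% of all genes. In no member did the mutant pools all lie below, beside 3.49% of all genes. The members' shares were near or under those of all genes. In pooled tissue, fewer cycling cells and less RNA per cell cannot be told apart.

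Replication genes sat close to no difference. Of the 20, 12 lay above and 8 below a log2 difference (mutant minus wild-type) of 0; their median was 0.008, and they ran from -0.11 to 0.07. Over all 12393 genes, 6427 lay above and 5966 below 0, and the median was 0.003. Of the 31 mitosis genes, 23 lay above and 8 below 0; their median was 0.03, and they ran from -0.11 to 0.45. The 95% interval lay within -0.5 to 0.5 on the log2 scale for 49 of 51 members, with Kifc1 and Cenpe as the exceptions. The SE of a member's difference ran from 0.070 to 0.194. The number of arrays limits this precision.

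**Figure D1:**
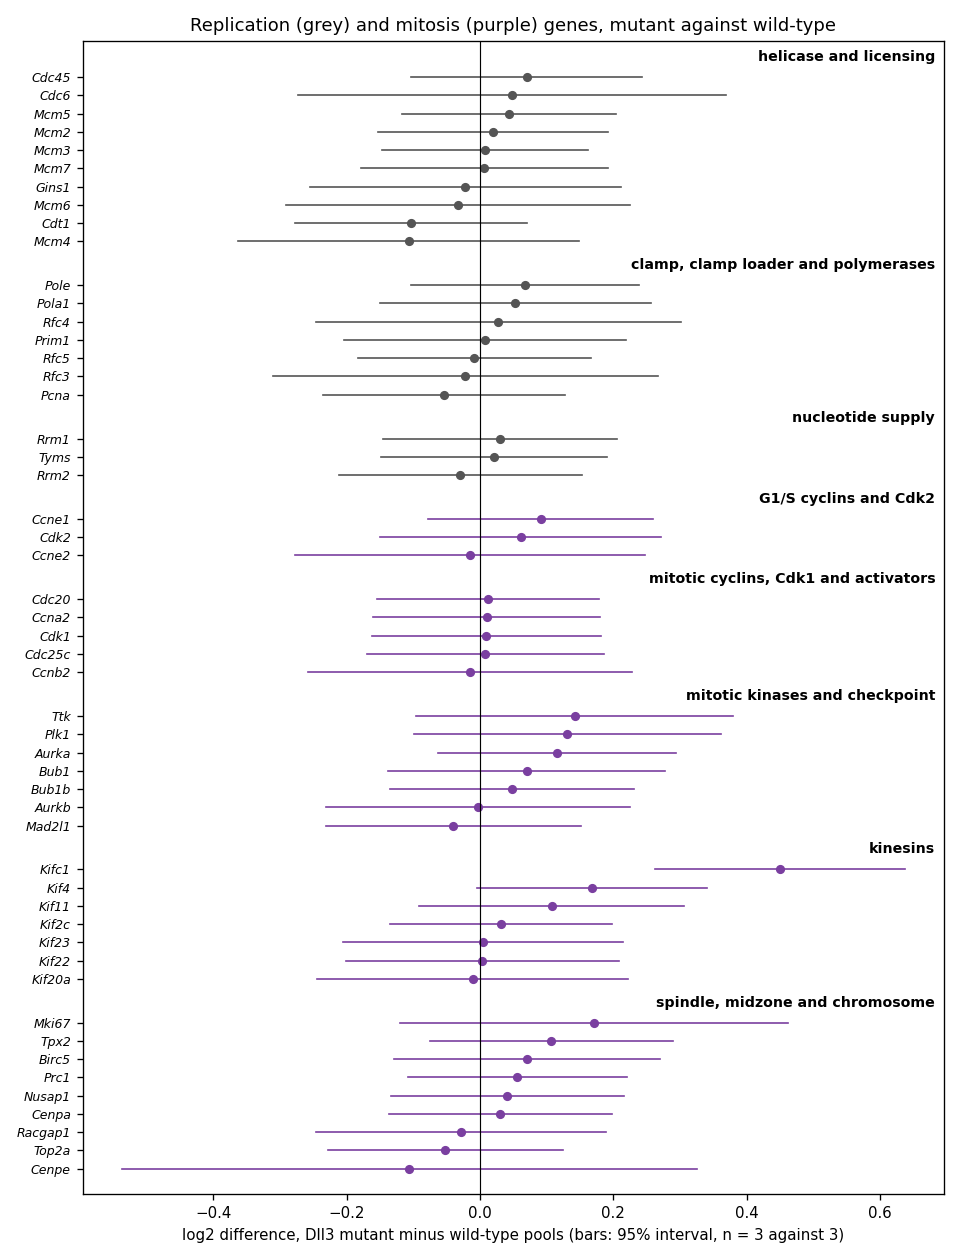
Log2 difference between mutant and wild-type pools on the horizontal axis for each of the 51 measured members, grouped by role; points are the limma estimate and bars its 95% interval (3 pools against 3). Kifc1, at 0.45, stands to the right of all others, and only its interval leaves out 0.

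Among helicase and licensing genes, Cdt1 and Mcm4 had the lowest values. Cdt1, the licensing factor that is destroyed once S phase begins, had ratios of 0.924, 0.974 and 1.03 in wild-type pools 1 to 3 and 0.866, 0.894 and 0.962 in the mutant pools. The lowest wild-type pool lay inside the mutant range, so the groups overlapped. Its log2 difference was -0.10 (SE 0.079, limma adjusted p = 0.9997). Its 3 probe sets gave -0.17, -0.14 and 0.003.

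Mcm4, a subunit of the helicase, was at 0.976, 0.993 and 1.24 in wild-type and at 0.87, 0.998 and 1.11 in mutant pools. Wild-type pool 3 was the highest and mutant pool 1 the lowest. The difference was -0.11 (SE 0.115), and without wild-type replicate 3 it was 0.002, so its sign rests on that pool. Mcm6, another subunit, was at 0.948, 0.949 and 1.23 in wild-type and 0.917, 1.01 and 1.12 in mutant pools, a difference of -0.03 (SE 0.116). The same pools were highest and lowest as for Mcm4.

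Cdc45, which joins the helicase as it fires, was the highest of this role. Its ratios were 0.92, 0.956 and 1.04 in wild-type and 1, 1.06 and 1 in mutant pools, and 2 of 3 mutant pools lay below wild-type pool 3. The difference was 0.07 (SE 0.078). The other helicase and licensing genes were at 0.05 (Cdc6), 0.04 (Mcm5), 0.02 (Mcm2), 0.008 (Mcm3), 0.007 (Mcm7) and -0.02 (Gins1, a GINS subunit).

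Polymerase and clamp genes were spread evenly around 0. Pole, the catalytic subunit of the leading-strand polymerase, was at 0.91, 0.985 and 1.01 in wild-type and 0.972, 1.03 and 1.05 in mutant pools, with groups that overlapped. Its difference was 0.07 (SE 0.077). Pola1, of the polymerase that starts strands, was at 0.05, its primase partner Prim1 at 0.008, and the loader subunits Rfc4, Rfc5 and Rfc3 at 0.03, -0.008 and -0.02. Pcna was at -0.05 (SE 0.082). For nucleotide supply, the reductase genes Rrm1 and Rrm2 were at 0.03 and -0.03, and thymidylate synthase, Tyms, at 0.02.

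Kifc1, a kinesin that moves toward microtubule minus ends and gathers spindle poles, had the largest difference of all members. Its ratio was 0.915, 0.788 and 0.833 in wild-type pools and 1.16, 1.22 and 1.08 in mutant pools. Every mutant pool was above every wild-type pool. The means were 0.845 ± 0.064 (SD, n = 3) and 1.15 ± 0.068 (SD, n = 3), a log2 difference of 0.45 (SE 0.084, 95% interval 0.26 to 0.64, a fold of 1.37). Its unadjusted limma p was 0.000309 and its adjusted p 0.9997. The adjusted p ran from 0.311 to 1 over 15 alternatives.

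The single Kifc1 probe set carries the suffix _s_at, which marks probes shared by several transcripts. Kifc5b, a close relative of Kifc1 on the same chromosome, 17, had a probe set of its own. Kifc5b was at 0.932, 0.899 and 1.02 in wild-type and 1.1, 1.2 and 0.977 in mutant pools, a difference of 0.19 (SE 0.093) with groups that overlapped. Signal of one gene on the probes of the other cannot be separated here. With Xist minus Y-linked level as a covariate, the Kifc1 difference was 0.304 (SE 0.151, limma adjusted p = 1), and Kifc1 was no longer under an unadjusted p of 0.05. That level was -0.085, -1.48 and -1.73 in wild-type and 0.045, 0.81 and 0.73 in mutant pools, so it parted the genotypes too.

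Markers of other cells were also counted, and none of their genes passed the adjusted threshold. At an unadjusted limma p under 0.05 there were 5 primitive erythroid and 4 differentiating muscle genes, all higher in mutant pools. The other marker lists had at most 1 each, and the share of all genes was 2.67%. All 6 measured surface ectoderm genes were higher in mutant pools too (median 0.15), though none had an unadjusted limma p under 0.05. Of 11 somite genes 8 were lower (median -0.08). Of 9 measured primitive erythroid genes 8 were higher in mutant pools (median 0.23), with pool medians of -0.016, -0.059 and -0.114 in wild-type and 0.057, 0.256 and 0.010 in mutant pools. Of 10 differentiating muscle genes 8 were higher (median 0.21), with pool medians of 0.008, -0.047 and -0.104 in wild-type and 0.062, 0.260 and 0.002 in mutant pools. The erythroid medians did not overlap between genotypes and the muscle medians did. Their part in the Kifc1 difference was not tested.

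Kif4, an X-linked chromokinesin that organises the spindle midzone, was at 0.909, 0.902 and 0.999 in wild-type and 1.001, 1.072 and 1.083 in mutant pools. The groups did not overlap, though wild-type pool 3 and mutant pool 1 were only 0.002 apart. The difference was 0.17 (SE 0.078, limma adjusted p = 0.9997). Its adjusted p ran from 0.462 to 1 over 16 alternatives. With the Xist minus Y-linked level as a covariate the Kif4 difference was 0.195, and its SE rose to 0.149.

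The other kinesins lay lower. Kif11, the motor that pushes spindle poles apart, was at 0.11 (SE 0.089), Kif2c, a microtubule depolymeriser, at 0.03, the midzone motor Kif23 at 0.005, Kif22 at 0.004 and Kif20a at -0.01. Kif22, which pushes chromosome arms away from the poles, had 3 probe sets at 0.18, -0.002 and -0.17. The last of these was lower in every mutant pool than in any wild-type pool, and the first had overlapping groups.

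**Figure D2:**
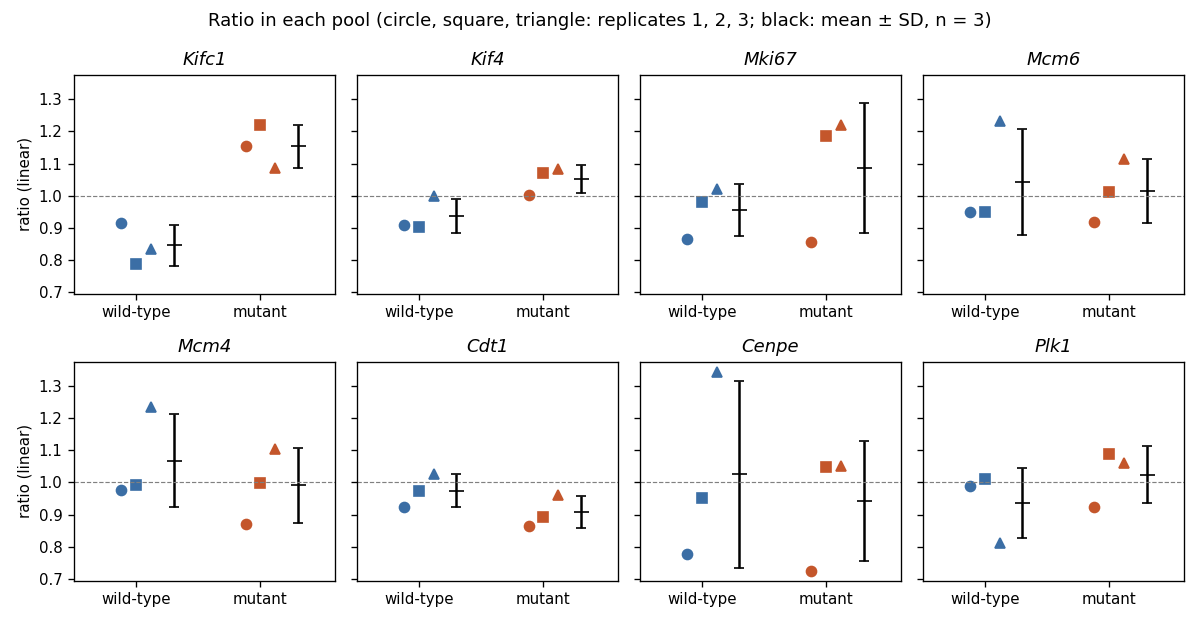
Linear ratio in each pool for 8 members (circle, square and triangle are replicates 1, 2 and 3, and the black bars are mean ± SD, n = 3). The 2 groups are apart for Kifc1, nearly touch for Kif4 and overlap for the other 6.

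Mitotic kinases and checkpoint genes had 5 positive and 2 negative differences, with a median of 0.07. Ttk, the kinase that starts the spindle checkpoint, was at 0.862, 0.903 and 1.09 in wild-type and 0.94, 1.14 and 1.06 in mutant pools, a difference of 0.14 (SE 0.107). Plk1 was at 0.988, 1.01 and 0.812 in wild-type and 0.923, 1.09 and 1.06 in mutant pools, a difference of 0.13 (SE 0.104). In Plk1 wild-type pool 3 was the lowest, where its ratio was above 1 for 40 of 51 members. Aurka, the kinase of spindle poles, was at 0.12 (SE 0.080), Bub1 at 0.07 and Bub1b at 0.05. Aurkb, the kinase of the centromere and midzone, was at -0.003 and Mad2l1 at -0.04. The groups overlapped in all 7.

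The drivers of the cycle lay near 0. Ccna2 was at 0.010, Cdk1 at 0.010, Ccnb2 at -0.02, the Cdk1-activating phosphatase gene Cdc25c at 0.008 and Cdc20, which triggers anaphase, at 0.01. Among the genes of entry into S phase Ccne1 was at 0.09 (SE 0.076), Cdk2 at 0.06 and Ccne2 at -0.01.

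Of 9 spindle, midzone and chromosome genes 6 were positive. Mki67, which encodes the proliferation antigen Ki-67, was at 0.866, 0.979 and 1.02 in wild-type and 0.855, 1.19 and 1.22 in mutant pools. Mutant pool 1 was the lowest of the 6 and mutant pools 2 and 3 the highest, so the difference of 0.17 had an SE of 0.131. Without mutant replicate 1 it was 0.335 (limma adjusted p = 0.9003). Cenpe, the kinesin of the kinetochore, was at 0.778, 0.952 and 1.35 in wild-type and 0.726, 1.05 and 1.05 in mutant pools. Its spread was the widest of the members, and its difference of -0.11 (SE 0.194) turned to 0.109 when wild-type replicate 3 was left out and to 0.0709 when mutant replicate 1 was.

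Top2a, the topoisomerase that untangles sister chromatids, was at 1.03, 1.11 and 0.995 in wild-type and 0.965, 1.08 and 0.983 in mutant pools. The groups overlapped. Its difference of -0.05 (SE 0.079) was the mean of 2 probe sets at -0.23 and 0.12. Of the rest, Tpx2, the activator of Aurka, was at 0.11, the survivin gene Birc5 at 0.07, Prc1 at 0.06, Nusap1 at 0.04, the centromeric histone gene Cenpa at 0.03 and Racgap1 at -0.03. Of 25 members with more than 1 probe set, the probe sets differed in sign in 17: Mcm2, Mcm3, Mcm6, Mcm7, Cdt1, Rfc3, Rfc4, Prim1, Tyms, Aurkb, Ccna2, Cdc20, Kif22, Kif23, Kif2c, Racgap1 and Top2a. In 8 they had the same sign.

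Each pool was left out in turn, and the members at an unadjusted limma p under 0.05 were counted again. In 4 of the 6 fits the count stayed at 1 (Kifc1). Without wild-type replicate 3 it was 4 (Kifc1, Kif4, Kif11 and Ttk, 7.84% of members beside 5.51% of all genes). Without mutant replicate 1 it was also 4 (Kifc1, Kif4, Aurka and Mki67, 7.84% beside 5.1%). All of these were higher in mutant pools, all belong to the mitosis genes, and none passed after adjustment. Wild-type pool 3 was the highest pool for 25 of 51 members and mutant pool 1 the lowest for 21. Leaving out either therefore moves the members toward higher in mutant pools.

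For both lists the pool medians were further apart within a genotype than the median difference between genotypes. The median log2 level of replication genes was -0.09, -0.05 and 0.08 in wild-type pools 1 to 3 and -0.09, 0.02 and 0.05 in mutant pools 1 to 3. For mitosis genes it was -0.07, -0.04 and 0.04 in wild-type and -0.07, 0.09 and 0.04 in mutant pools. Wild-type pools 1 and 2 and mutant pool 1 were low, and the other 3 were high. The sign of each of these medians was the same after quantile normalization and after median centring.

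Counted by gene, a ratio above 1 was found in 7, 8 and 40 of the 51 members in wild-type pools 1 to 3 and in 8, 41 and 35 in mutant pools 1 to 3. Over all genes the same share was 45.8%, 41.3% and 46.3% in wild-type and 42.5%, 48.4% and 51.7% in mutant pools. Wild-type pool 3 was the highest of the 6 for 25 members, 13 of them replication genes, beside 21.4% of all genes. Mutant pool 1 was the lowest for 21 members (41.2%) and wild-type pool 1 for 17 (33.3%), beside 21.1% and 12.7% of all genes. Mutant pools 2 and 3 were the lowest for no member, beside 12.9% and 16.2% of all genes.

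**Figure D3:**
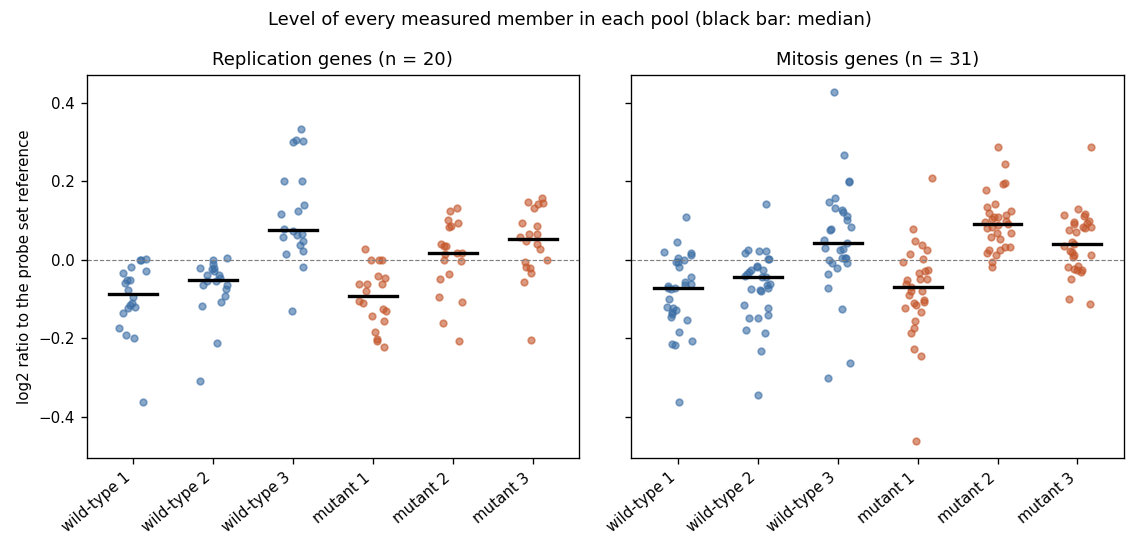
Log2 ratio to the probe set reference on the vertical axis for every measured member in each of the 6 pools (blue wild-type, orange mutant), with a black bar at the median. In wild-type pools 1 and 2 and mutant pool 1 the medians lie between -0.09 and -0.04, and in the other 3 between 0.02 and 0.09.

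Further genes of the same processes, from lists also chosen with earlier results of these data known, had low medians in the same 3 pools. Of 35 other measured replication genes (such as the origin recognition, replication protein A and GINS subunits) 22 were higher and 13 lower in mutant pools (median 0.01). Their pool medians were -0.06, -0.03 and 0.05 in wild-type and -0.03, 0.03 and 0.06 in mutant pools. Of 40 other mitosis genes 26 were higher and 14 lower (median 0.05), with pool medians of -0.06, -0.06 and 0.03 in wild-type and -0.04, 0.06 and 0.04 in mutant pools. None of the genes of these 2 lists reached an unadjusted p under 0.05 in limma. Those with groups that did not overlap were Ccnf (0.17), Hmmr (0.12), Chaf1b (0.09) and Lig1 (0.07), which were higher, and Cenpn (-0.06), which was lower. Over all genes, 3.98% had every mutant pool above every wild-type pool and 3.49% had every one below.

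Regulators of the cycle were counted in the same way. Of 19 measured control genes, the E2F factors, retinoblastoma family, D cyclins and Myc genes among them, 9 were higher and 10 lower (median -0.001). Of 15 inhibitor and exit genes 13 were higher and 2 lower (median 0.05), and Cdkn1c and Cdkn1b, which encode inhibitors of cyclin-dependent kinases, were at 0.19 (SE 0.109) and 0.15 (SE 0.083). Their groups overlapped. Ccnd1, which encodes cyclin D1, was lower in every mutant pool than in any wild-type pool (-0.05). It was the 1 control gene of which this held, beside 3.49% of all genes. No gene of the control and inhibitor lists had an unadjusted p under 0.05.

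Members also rose and fell together from pool to pool within each genotype. Over the deviations of the 6 pools from their group means, the median Pearson r of a pair of replication genes was 0.69 (190 pairs, 96.3% above 0). For a pair of mitosis genes it was 0.45 (465 pairs, 79.1% above 0), and for a replication gene with a mitosis gene 0.548 (620 pairs). Over all pairs of genes the median was 0.005, with 50.2% above 0. These are descriptions: all pairs share the same 6 arrays, and the deviations leave 2 independent values per genotype. Leaving out each pool in turn gave medians of 0.484 to 0.834 for replication and 0.362 to 0.532 for mitosis genes.

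The closest followers of the rest of their list were Mcm6 (r 0.983 with the mean of the other replication genes), Mcm2 (0.98), Rfc3 (0.975), Ttk (0.973 with the other mitosis genes), Kif22 (0.964) and Kif23 (0.955). Tyms (0.363) and Rfc5 (0.441) followed least among replication genes. Ccne1 (-0.294), Plk1 (-0.115), Kifc1 (-0.04) and Bub1b (0.07) did not follow the mitosis genes. Kifc1 was thus the member with the largest genotype difference and among the 4 that shared least of the pool pattern. Kif4 had an r of 0.921.

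**Figure D4:**
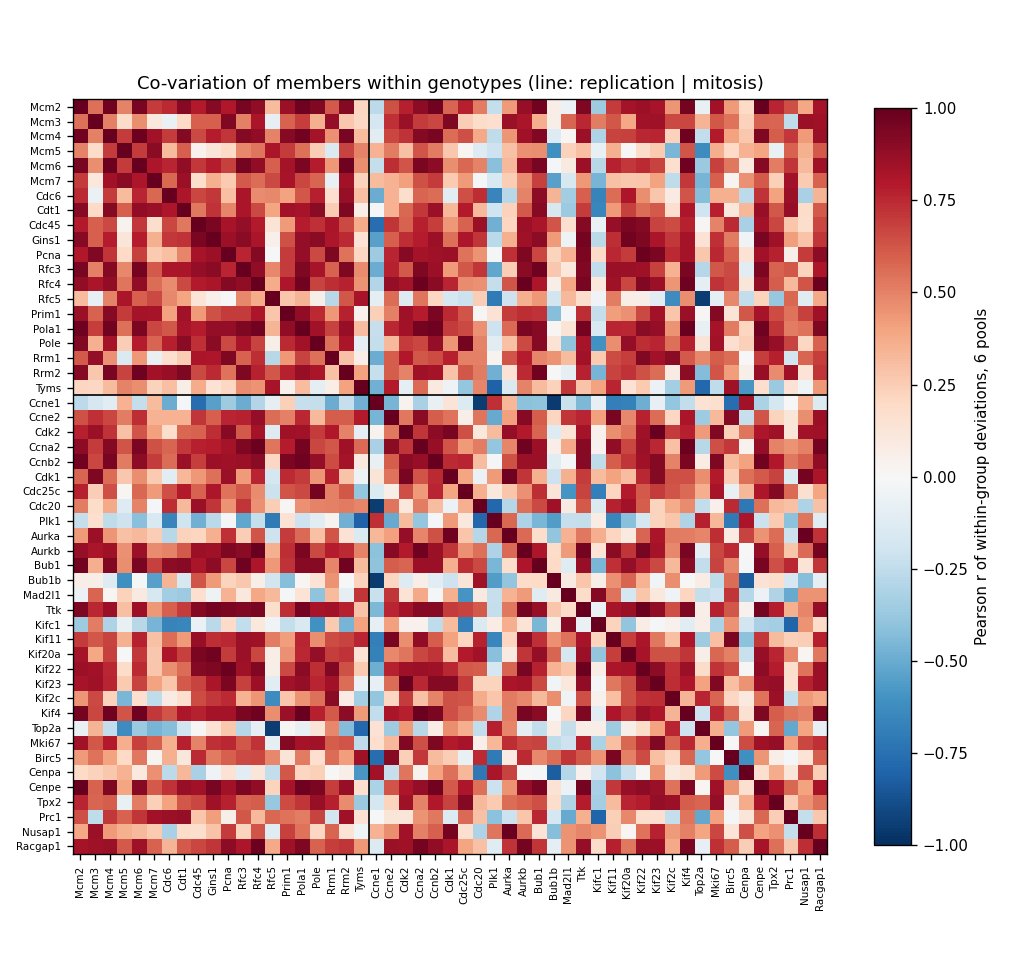
Pearson r (colour, -1 to 1) between the within-genotype deviations of each pair of the 51 members over 6 pools; black lines part replication genes (upper left) from mitosis genes. The replication block is mostly red (median 0.69), while Ccne1, Plk1, Bub1b, Kifc1 and Top2a form pale or blue stripes.

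Beside this pool pattern, the postmitotic neuron markers had pool medians of 0.17, 0.02 and -0.18 in wild-type and -0.24, 0.21 and -0.04 in mutant pools, and surface ectoderm markers -0.15, -0.20 and 0.14 in wild-type and 0.07, 0.02 and 0.21 in mutant pools. The neuron medians ran in the opposite order to the members in wild-type pools and in the order of the mitosis genes in mutant pools. The surface ectoderm medians were low in wild-type pools 1 and 2 and high in wild-type pool 3, like the members. In mutant pool 1, where the members were low, the surface ectoderm median was not. Somite markers had pool medians of 0.02, 0.03 and 0.11 in wild-type and -0.17, -0.06 and 0.06 in mutant pools. Within each genotype that was the order of the replication genes. Endoderm markers were at -0.07, -0.14 and 0.11 in wild-type and 0.18, -0.13 and -0.0155 in mutant pools. Endothelial markers were at 0.002, -0.023 and 0.029 in wild-type and -0.038, 0.037 and 0.050 in mutant pools, highest in the pools where the members were high. Neural progenitor markers were at 0.027, -0.110 and -0.025 in wild-type and -0.037, 0.021 and 0.048 in mutant pools. Cardiac markers were at 0.009, -0.062 and 0.011 in wild-type and -0.011, -0.074 and -0.074 in mutant pools. The median over all genes moved only from -0.02 to 0.004 between pools. The log2 level of the 3' minus the 5' control probe set, a sign of RNA length, was -0.044, 0.033 and -0.041 in wild-type and 0.011, 0.038 and 0.009 in mutant pools for actin, and 0.069, -0.007 and -0.070 in wild-type and -0.026, -0.075 and 0.007 in mutant pools for Gapdh. The Gapdh value was highest in wild-type pool 1 and low in wild-type pool 3, the reverse of the members. It was lowest in mutant pool 2, where the mitosis median was highest. In mutant pool 1, where the members were low, it was below that of mutant pool 3, where they were high. The actin value was nearly equal in wild-type pools 1 and 3, where the members were low and high. The part of cell makeup and of RNA quality in the pool pattern was not tested.

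Promoters of the members were read because the genes moved together. RefSeq windows (build GRCm38.p6) of 300 bases, from 250 before to 50 after the start, were matched for 42 of the 51 members. Replication genes are known as targets of E2F factors, and many mitosis genes carry a cell cycle homology region (CHR), often with CCAAT boxes that bind NF-Y. The letters searched on both strands were TTTCGCGC, TTTGGCGC, TTTCCCGC and TTTGCCGC for E2F, TTTGAA for the CHR and CCAAT. Overlapping matches on opposite strands, as in Mcm6, were counted separately, and matches of different motifs may overlap.

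An E2F match was present in 8 of 17 replication windows (47.1%), in 2 of 25 mitosis windows (8%) and in 3.57% of 9887 windows of genes on the array. The replication genes were Mcm3, Mcm5, Mcm6, Mcm7, Cdc6, Cdt1, Pola1 and Rfc3, and the mitosis genes were Cdk1 and Cdk2. A CHR match was present in 18 of 25 mitosis windows (72%), in 2 of 17 replication windows (11.8%) and in 13% of windows on the array. CCAAT was present in 12 of 17 (70.6%), 20 of 25 (80%) and 38.1%. CHR and CCAAT stood together in 17 of 25 mitosis windows (68%), beside 5.16% on the array. A match of letters is not evidence of binding.

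**Figure D5:**
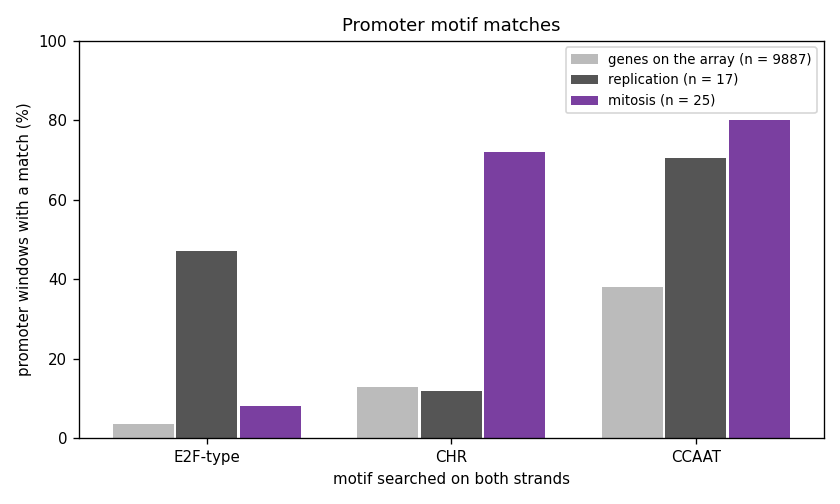
Percentage of 300-base promoter windows with at least 1 match on either strand, for genes on the array (light grey, n = 9887), replication genes (dark grey, n = 17) and mitosis genes (purple, n = 25). E2F-type letters stand out in replication genes (47.1%), CHR letters in mitosis genes (72%), and CCAAT is frequent in both.

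The windows shown are those of the 2 replication genes with an E2F match and the 2 mitosis genes with a CHR match that followed their list most closely, and of the 2 members whose genotypes did not overlap. Capitals mark the matches to any of the 3 motifs on either strand. Mcm6 lies at chr1:128359656-128359955 on the minus strand, Rfc3 at chr5:151651159-151651458 on the minus strand, Ttk at chr9:83834439-83834738 on the plus strand, Kif22 at chr7:127042371-127042670 on the minus strand, Kifc1 at chr17:33890584-33890883 on the minus strand and Kif4 at chrX:100625815-100626114 on the plus strand.
Mcm6: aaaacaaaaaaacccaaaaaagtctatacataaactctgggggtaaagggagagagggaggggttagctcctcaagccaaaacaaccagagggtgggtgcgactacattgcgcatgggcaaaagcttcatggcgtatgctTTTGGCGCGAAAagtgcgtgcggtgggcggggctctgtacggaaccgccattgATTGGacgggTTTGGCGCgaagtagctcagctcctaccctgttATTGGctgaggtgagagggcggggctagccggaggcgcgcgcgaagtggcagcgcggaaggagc
Rfc3: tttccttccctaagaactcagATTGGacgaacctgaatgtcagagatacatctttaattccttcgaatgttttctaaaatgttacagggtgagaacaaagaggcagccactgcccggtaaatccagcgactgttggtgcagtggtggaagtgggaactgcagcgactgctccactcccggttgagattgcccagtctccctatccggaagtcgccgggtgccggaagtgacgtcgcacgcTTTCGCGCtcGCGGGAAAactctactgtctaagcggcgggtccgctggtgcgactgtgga
Ttk: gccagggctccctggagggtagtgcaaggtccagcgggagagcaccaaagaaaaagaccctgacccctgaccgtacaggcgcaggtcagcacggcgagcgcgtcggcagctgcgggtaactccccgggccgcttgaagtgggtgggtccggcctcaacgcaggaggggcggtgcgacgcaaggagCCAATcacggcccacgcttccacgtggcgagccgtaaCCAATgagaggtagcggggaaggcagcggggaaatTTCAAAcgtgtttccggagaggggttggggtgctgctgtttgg
Kif22: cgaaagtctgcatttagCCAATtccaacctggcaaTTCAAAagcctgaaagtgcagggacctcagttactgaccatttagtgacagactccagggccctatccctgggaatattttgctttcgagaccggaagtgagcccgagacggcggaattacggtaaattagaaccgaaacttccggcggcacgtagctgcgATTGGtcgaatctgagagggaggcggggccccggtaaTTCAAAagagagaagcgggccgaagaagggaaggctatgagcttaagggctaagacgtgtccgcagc
Kifc1: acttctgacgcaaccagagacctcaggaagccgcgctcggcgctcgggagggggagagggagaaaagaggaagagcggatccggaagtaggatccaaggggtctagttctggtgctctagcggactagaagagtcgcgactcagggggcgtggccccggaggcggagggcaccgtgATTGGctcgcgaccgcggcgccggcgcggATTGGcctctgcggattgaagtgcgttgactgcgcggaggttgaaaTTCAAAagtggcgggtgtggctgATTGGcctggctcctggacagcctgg
Kif4: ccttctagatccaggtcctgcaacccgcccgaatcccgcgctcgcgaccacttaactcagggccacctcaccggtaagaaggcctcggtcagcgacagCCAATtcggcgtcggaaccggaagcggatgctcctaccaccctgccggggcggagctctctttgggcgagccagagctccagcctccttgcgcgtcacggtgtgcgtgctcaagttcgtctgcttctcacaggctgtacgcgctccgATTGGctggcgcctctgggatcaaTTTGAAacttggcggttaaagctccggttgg

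Kifc1 held 1 CHR and 3 CCAAT matches, Kif4 and Ttk 1 and 2, and Kif22 2 and 2. Kif4, Ttk and Kif22 followed the pool pattern and Kifc1 did not. Replication genes with an E2F match had a median log2 difference of 0.007 (n = 8) and those without 0.019 (n = 9), and their median r with the rest of the list was 0.788 and 0.789. Mitosis genes with a CHR match had a median difference of 0.04 (n = 18) and those without 0.06 (n = 7), with a median r of 0.697 and 0.642.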

How the data were processed

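Per the labels, biotinylated cRNA was made from each of 6 pools and hybridised to its own MOE430A array. The table the authors deposited holds 22690 rows of linear ratios, whose reference is unstated: over the 6 pools the row median is 1 (within 0.0015) in 93.4% of rows and lower in 1497. The submitters' processing notes name RMA and MAS5 but give neither a role. Scaling between arrays and the genome build are not given in the sources used here. Depth does not apply to arrays.

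After 64 control probe sets were removed, 22626 remained. The platform annotation named 1 gene for 20380, several for 691 and none for 1555, and symbols were updated by gene identifier (20351 matched, assembly GRCm38.p6). Log2 ratios without pseudocount were averaged over the probe sets of a gene. Mutant and wild-type pools were compared over 12393 genes in R 4.3.3 by limma 3.58.1 (lmFit, then eBayes without trend; genotype was the sole term; two-sided p, Benjamini-Hochberg threshold 0.05), and over probe sets for single probe set values. Pools are biological replicates per the series design. Medians over lists have no test. An exact permutation test of 3 against 3 cannot go below p = 0.1. The members and lists were chosen with earlier results of these data known. Members given in every pool are those with an unadjusted p under 0.05, those whose groups did not overlap and the 2 of smallest p per direction in each group. Mcm6, Mki67, Plk1, Ttk and Kifc5b were added after their values were seen. In 20 simulated runs of this comparison, 200 of 12393 genes were changed and noise was drawn independently for each gene. Of genes changed by 0.5 (log2) 63.5% were recovered, and of those changed by 1, 96%, with 4.59% false calls. Real genes shared patterns between pools, so these shares need not hold for the real pools. In the real fit neither Uncx (log2 difference -1.0) nor Xist (1.3) passed the threshold. Promoter letters were searched by script in the first window of each gene. Figures were drawn with matplotlib 3.10.9. The 16 alternatives are given in the closing section.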

Additional observations from a re-analysis of the deposited data

How the results depend on the processing

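In limma the count of genes past the adjusted threshold was 0, and 1 (Uncx, no member) with the replicate block, with a variance trend and with array weights. Leaving out each pool in turn gave 0 to 1, the 1 being Xist when wild-type replicate 1 was dropped. For members the count at an unadjusted p under 0.05 was 1 (Kifc1). It was 2 (3.92% of members) with the replicate block, with quantile normalization and with both pools numbered 3 left out, beside 4.98%, 2.95% and 3.81% of all genes. It was 6 with array weights (11.8% of members beside 9.68% of all genes), 0 without _x_at and _s_at probe sets, which leaves out Kifc1, and 1 to 4 with 1 pool left out. When the sex score (Xist minus Y-linked level) entered as a covariate, Cdc6 (0.524, and 0.048 without the score) took the place of Kifc1. Its unadjusted limma p was 0.021, and it did not pass after adjustment. It made 1.96% of members beside 1.26% of all genes. The score parted the genotypes, and with it the SE of Kifc1 rose from 0.0844 to 0.151. The median of the replication genes (0.008) ran from -0.020 (without wild-type replicate 2) to 0.061 (without wild-type replicate 3), and was 0.0618 with array weights and -0.00744 with the most variable probe set per gene. That of the mitosis genes (0.03) ran from -0.0004 (without mutant replicate 2) to 0.080 (without wild-type replicate 3), and was 0.0943 with array weights. The SD of the pool median within a genotype was 0.0808 for replication and 0.0711 for mitosis genes, and neither list has a test. The difference of Cenpe turned to 0.114 under array weights, to 0.192 under the sex score and to 0.0194 without both pools numbered 3, and -0.286 to 0.109 with 1 pool left out. That of Mcm4 was -0.189 to 0.00221 with 1 pool left out. Kifc1, Kif4, Cdt1, Cdc45, Pole and Top2a kept their sign in every alternative in which they were measured, and none of the 8 passed an adjusted threshold. The cause of these differences was not tested, except where fewer pools or probe sets enter. By the deviations over all genes, same-numbered pools correlated at 0.362, -0.038 and 0.398. For wild-type pools 1 and 3 the same-numbered mutant pool was the best match. Wild-type pool 2 correlated best with mutant pool 1 (0.23). The replicate block lowered the SE of Cenpe from 0.194 to 0.0935 and that of Kifc1 from 0.0844 to 0.0811. Whether the numbers mark pairs was not tested. The pairwise correlations under other scalings and with a pool left out were added after seeing the data. With quantile normalization they were 0.576 and 0.409, and with median centring 0.63 and 0.403, for replication and mitosis genes. Ratios keep no signal over background, so a dim probe set cannot be told from a bright one.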
